A study of Danio rerio with 40 samples.

Results

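The collagen genes were taken from the deposited gene count table by their symbols, namely every row whose symbol begins with col, a type number, a and a chain number. The rule found 23 of the 14267 genes in the table. Of these, 21 encode collagen chains. The other 2, col4a3bp and col4a3bpa, carry the letters of a collagen in an older name only and encode a ceramide transporter, called cert1a in RefSeq, so they are described separately at the end. All 23 passed the filter on low counts in every comparison.

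The study asked how calcitriol, the hormonal form of vitamin D, changes gene expression in developing zebrafish. All embryos came from Segrest wild-type parents, and all were kept in 0.003% 1-phenyl-2-thiourea, which blocks pigment formation. By the labels, they were held from 24 h after fertilization in 300 pM 1a,25(OH)2D3 (calcitriol) in ethanol or in ethanol alone (vehicle). The medium was renewed every 24 h. Sampling was at 2, 4, 6 and 7 days after fertilization (dpf), which gives 8 groups of 5 libraries, 40 in all, made from the poly-A RNA of pooled sets of 25 to 30 whole embryos or larvae. The labels do not say whether the 5 sets of a group came from separate clutches, so the p-values measure the spread between these sets. The labels also describe a second experiment, with hormone given only for 24 h to larvae of 6 dpf, and no library is marked as belonging to it. The length of exposure of the 7 dpf libraries is therefore not certain.

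Collagens are secreted proteins made of 3 chains wound into a triple helix, in which glycine recurs at a fixed spacing. Type 1, with smaller amounts of type 5, forms the fibrils of bone, skin and tendon. Type 2 forms the fibrils of cartilage and of the notochord sheath, with type 11 inside the fibril and type 9 on its surface. Type 10 is a short-chain collagen of mammalian hypertrophic cartilage, and in teleosts it is also made by bone-forming cells. Type 4 makes the network of basement membranes. In the zebrafish larva collagen is made early by the epidermis and the notochord and later by fibroblasts, cartilage and bone, and a library of a whole larva sums all of these. A lower level can therefore come from fewer cells of a type or from less RNA per cell, and the 2 cannot be told apart here.

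By type, the table held col1a1a, col1a1b and col1a2 of type 1, col5a2l, col5a3a and col5a3b of type 5, and col10a1 and col8a1a of the short-chain types. The cartilage collagens were col2a1a, col9a1, col9a2, col11a1a, col11a1b and col11a2. The others were col27a1a and col27a1b (fibrillar collagens of developing cartilage), col4a5 (the 1 type 4 chain present), col15a1a and col18a1 (basement membrane multiplexins), col17a1a (the transmembrane collagen that anchors basal epidermal cells) and col28a1a (a collagen with von Willebrand factor domains). RefSeq names col5a2l as col5a2a, col9a1 as col9a1b, col10a1 as col10a1a, col18a1 as col18a1a and col28a1a as col28a2a. RefSeq lists 60 zebrafish genes with collagen symbols, so the 21 are a part of the family. A further 4 rows of the table are collagens under clone names (col8a2, col9a1a, col15a1b and col19a1) and do not meet the rule. As the gene identifiers give them, col1a1a lies on chromosome 3, col1a1b on 12, col10a1 on 17, col8a1a on 9, col2a1a on 8, col11a1a on 24 and col11a1b on 2, while col1a2, col9a2 and col11a2 all lie on chromosome 19. Levels are compared within a gene and not between genes, since no transcript lengths were used.

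Total counts ranged from 67235165 to 214502251 per library, and 13538 to 13931 genes had a count. In every group 1 library was shallow, with at most 81298182 counts against at least 106850887 in all others. It is replicate 1 in the vehicle groups and replicate 5 in the calcitriol groups. The shallow libraries stood apart in several collagens at 6 and 7 dpf. Several results at those ages, though not all, are therefore also given without them. Levels below are CPM values (counts relative to the library total) with TMM scaling over all 40 libraries, and fold changes come from edgeR's quasi-likelihood test, adjusted over all genes tested by Benjamini-Hochberg with a threshold of 0.05.

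The summed level of the collagen genes was lower in older vehicle larvae, though not that of each gene. The 21 genes took a mean of 2.70% of all counts at 2 dpf (range 2.18% to 3.13% over 5 libraries), 2.299% at 4 dpf, 1.41% at 6 dpf and 0.810% at 7 dpf (range 0.651% to 1.097%). Their summed level was 28532 ± 5876 CPM (SD, n = 5) at 2 dpf and 8919 ± 1861 CPM at 7 dpf, 3.20-fold lower. The sum for the cartilage collagens was 4.93-fold lower at 7 than at 2 dpf, and that of type 1 was 2.75-fold lower. No test was made of these sums.

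**Figure D1:**
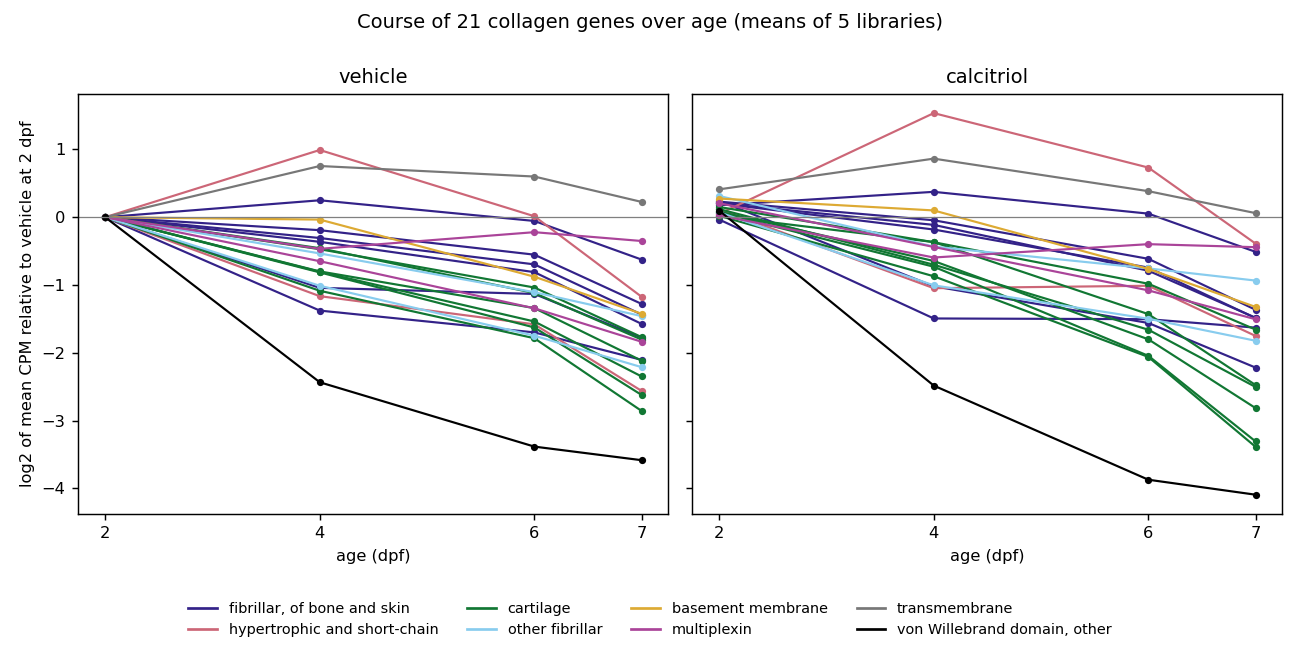
Mean level of each of the 21 collagen genes at 2, 4, 6 and 7 dpf (x axis) as log2 of its ratio to the vehicle mean at 2 dpf (y axis), in vehicle (left) and calcitriol (right), with 1 line per gene coloured by class and each point a mean of 5 libraries. Most lines descend. In vehicle, col10a1, col17a1a and col5a2l were highest at 4 dpf and col28a1a dropped furthest.

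Between 2 and 4 dpf in vehicle, 13 of the 21 collagens fell and 2 rose (edgeR, adjusted p under 0.05), where 30.2% of all 13379 genes tested fell, 32.1% rose and 62.2% passed in either direction. The median log2 fold change of the collagens was -0.54, against -0.00444 over all genes. All 6 cartilage collagens fell, by 0.46 (col11a1b) to 1.09 (col9a1) on the log2 scale, and with no scaling factors the call of col11a1b was lost (edgeR adjusted p = 0.0651), as was that of col27a1b (adjusted p = 0.0716). The steepest change was in col28a1a, from 125, 127, 166, 172 and 195 CPM at 2 dpf to 24.8, 25.5, 25.9, 32.8 and 36.0 CPM at 4 dpf. Its groups lay far apart, and its log2 fold change was -2.44 ± 0.16 (SE, edgeR adjusted p = 9.33e-08).

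The 2 that rose between 2 and 4 dpf were col10a1 and col17a1a. col10a1 rose from 43.0 (the shallow library), 95.1, 103, 118 and 139 CPM to 182, 186, 191, 199 and 230 CPM, with no overlap between the ages (log2 fold change 0.99 ± 0.23, edgeR adjusted p = 0.00284). col17a1a rose from 135 to 226 CPM over 5 libraries at 2 dpf to 271 to 371 CPM at 4 dpf (0.75 ± 0.14, edgeR adjusted p = 0.000448). In all, 13 of the 21 collagens did not overlap between the 2 ages, against 47.7% of all genes. The type 1 chains did not pass: log2 fold changes were -0.37 for col1a1a, -0.20 for col1a1b and -0.31 for col1a2 (edgeR adjusted p = 0.0697, 0.287 and 0.0783). Libraries of equal replicate number correlated at 0.258 to 0.357 between these ages, and unequal numbers were not compared. With these numbers as a block, 19 collagens passed (3 higher and 16 lower) against 71.9% of genes (36.4% higher and 35.5% lower). col1a1a, col1a2 and col15a1a then fell (edgeR adjusted p = 0.00548, 0.0278 and 0.00203) and col5a2l rose by 0.25 (edgeR adjusted p = 0.00644).

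From 4 to 6 dpf in vehicle, 14 collagens fell and 0 rose, against 17.8% of 13466 genes that fell and 18.1% that rose (35.9% either way). The collagen median was -0.56 on the log2 scale. col10a1 returned from its peak, to 82.3, 87.6, 93.6, 111 and 128 CPM (-0.98 ± 0.13, edgeR adjusted p = 0.000204). col4a5 of the basement membrane, which did not pass between 2 and 4 dpf (-0.04 ± 0.10, adjusted p = 0.750), fell from 503 to 615 CPM at 4 dpf to 264 to 356 CPM at 6 dpf (-0.84 ± 0.09, edgeR adjusted p = 8.56e-05). All 3 type 1 chains fell, by 0.36 (col1a1b) to 0.44 (col1a1a). Of the cartilage collagens 5 of 6 fell, and col9a1 did not pass (-0.69 ± 0.27, adjusted p = 0.0628). The calls of col1a1a and col1a2 were each lost when certain single libraries were left out (vehicle replicate 4 or 5 of 4 dpf and 2 or 3 of 6 dpf for both, and also replicate 1 of 4 dpf and 4 of 6 dpf for col1a2), with edgeR adjusted p up to 0.0841 and 0.0790. Groups did not overlap for 8 collagens, against 23.8% of all genes.

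From 6 to 7 dpf in vehicle, again 14 collagens fell and 0 rose, against 4.92% of 13464 genes that fell and 7.1% that rose (12% either way). All 21 fold changes were below 0, with a median of -0.66. All 6 cartilage collagens fell, by 0.66 (col11a1b) to 1.04 (col9a1), as did the 3 type 1 chains, by 0.70 to 0.73. col10a1 had the largest called change, from 82.3 to 128 CPM at 6 dpf to 27.0, 31.2, 44.2, 52.3 and 65.6 CPM at 7 dpf (-1.16 ± 0.23, edgeR adjusted p = 0.00780). Groups did not overlap for 9 collagens, against 11.1% of genes. Without the shallow libraries 20 collagens fell and 0 rose, against 12.9% of genes that fell and 14% that rose. Here equal replicate numbers correlated at 0.196 to 0.533, and unequal numbers were not compared. With the replicate block 19 collagens fell, against 32.7% of genes called either way (15.8% lower). The block added col17a1a, col18a1, col27a1b, col5a3a and col5a3b (edgeR adjusted p from 0.000142 to 0.0303). The calls of col9a1, col9a2, col5a2l and col1a1a were lost when certain single libraries were left out, among them replicates 4 and 5 of 6 dpf and replicates 2 and 3 of 7 dpf for all 4 genes (edgeR adjusted p up to 0.117, 0.0934, 0.102 and 0.0672), and that of col9a1 also in DESeq2 (adjusted p = 0.05003).

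The direction of the calls over all genes depended on the scaling. With TMM scaling 51.5%, 50.4% and 59.1% of the called genes were higher over the 3 vehicle steps, and with no scaling factors 67.6%, 19.4% and 29.9%, as the median of all genes moved to 0.20, -0.23 and -0.09 on the log2 scale. The collagen medians with no scaling were -0.33, -0.79 and -0.74, below the median of all genes at each step.

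The genes that serve collagen also moved with age in vehicle. Of 14 genes for collagen folding and modification, 12 fell between 2 and 4 dpf, 10 between 4 and 6 dpf and 2 between 6 and 7 dpf, and every called gene of the list fell. Over all genes 30.2%, 17.8% and 4.92% fell and 32.1%, 18.1% and 7.1% rose at these steps, shares that also stand behind the lists that follow. With the replicate block 14 and 10 fell at the first and last step, against 35.5% and 15.8% of all genes. Among them fkbp9, a prolyl isomerase, fell from a mean of 125 to 36.1 CPM by 4 dpf (-1.80 ± 0.17, edgeR adjusted p = 1.82e-06), and plod1a, a lysyl hydroxylase that prepares collagen for crosslinking, fell from 72.1 to 25.8 CPM (-1.49 ± 0.14, adjusted p = 1.69e-06). The crosslinking enzyme lox went the other way over that step, from 1.92 to 14.1 CPM (2.87 ± 0.27, edgeR adjusted p = 1.82e-06), as did its relative loxl3a, from 1.70 to 7.98 CPM (2.22 ± 0.16). Of the 14 genes for procollagen processing and crosslinking, 4 rose and 3 fell from 2 to 4 dpf, 2 rose and 3 fell from 4 to 6 dpf, and 4 fell from 6 to 7 dpf.

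Of 9 secretion genes 6 were lower from 2 to 4 dpf, then 2 higher and 3 lower from 4 to 6 dpf, and 2 higher from 6 to 7 dpf (sec24d 0.28 ± 0.06 and klhl12 0.33 ± 0.07, edgeR adjusted p = 0.00780 and 0.0114). Of 14 collagen receptors and fibril-associated proteoglycans, 11, 8 and 6 fell over the 3 steps, and 2, 1 and 0 rose. lum, which encodes the fibril-spacing proteoglycan lumican, fell from 69.2 to 41.4 CPM between 4 and 6 dpf and to 24.1 CPM at 7 dpf (-0.74 ± 0.11 and -0.75 ± 0.08). Of 16 transcription factors of collagen genes, 8 fell from 2 to 4 dpf, among them sox9a, the regulator of type 2 collagen (-1.20 ± 0.15, edgeR adjusted p = 2.61e-05). From 4 to 6 dpf 7 fell, among them sp7, the osteoblast factor (-1.12 ± 0.21, adjusted p = 0.00198). From 6 to 7 dpf 0 rose and 0 fell, with a median of -0.17. In the blocked fit of that step 3 of the 16 were lower, against 15.8% of all genes. Of 8 collagen degradation genes 2 rose and 1 fell, then 3 fell, then 1 fell. With the block, from 6 to 7 dpf, 12 receptors and proteoglycans and 10 processing and crosslinking genes fell and 5 secretion genes rose, where 15.8% of all genes fell and 16.9% rose.

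With calcitriol, collagens were called at 6 and 7 dpf. At 7 dpf, 8 of 21 collagens passed the test: col10a1, col8a1a, col27a1a, col27a1b and col5a3a were higher, and the cartilage collagens col2a1a, col9a2 and col11a2 were lower. Over all 13434 genes tested 28.8% passed, 14.6% higher and 14.2% lower, against which the 8 of 21 collagens are to be read. The median log2 fold change of the collagens was -0.04, against 0.01 over all genes, and 10 of the 21 were above 0. Groups did not overlap for 3 collagens, all higher, against 18.1% of genes (8.16% higher). Of all called genes 50.8% were higher, and 78.2% with no scaling factors, which moved the median of all genes to 0.18.

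At 6 dpf 2 of 21 collagens passed, col10a1 and col27a1b, both higher, against 10.7% of 13505 genes (4.37% higher and 6.32% lower). These were also the 2 whose groups did not overlap, against 9.96% of genes. The collagen median was -0.03, against 0.02 over all genes. Of all called genes 40.9% were higher, and 74.0% with no scaling factors, where the median of all genes was 0.14.

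**Figure D2:**
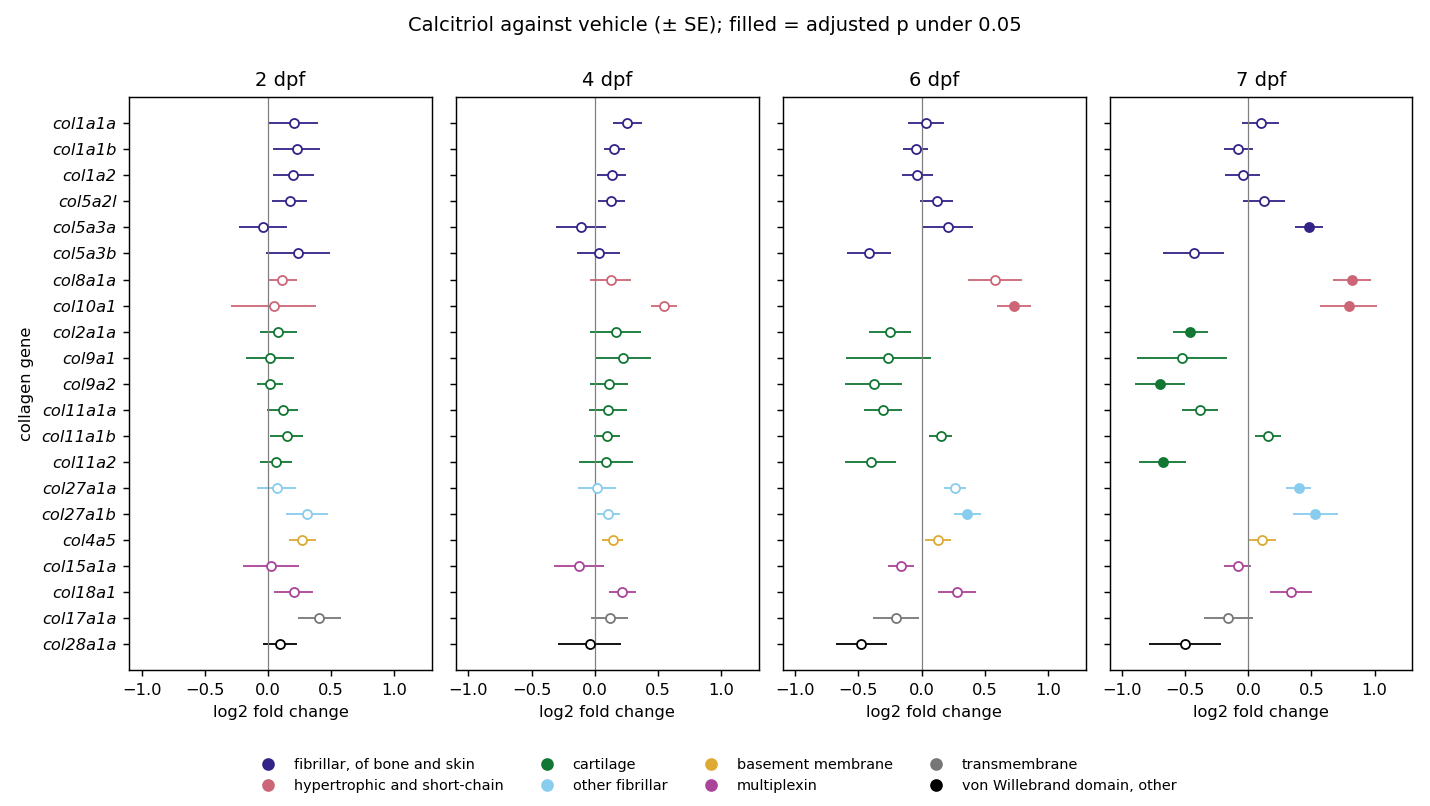
Log2 fold change, calcitriol against vehicle (x axis), of the 21 collagen genes (y axis, ordered and coloured by class) at 2, 4, 6 and 7 dpf, with bars of ± 1 SE from edgeR (n = 5 libraries per group). Filled points passed an adjusted p of 0.05: 0 at 2 and 4 dpf, 2 at 6 dpf and 8 at 7 dpf.

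col10a1 passed at 6 and 7 dpf, as did col27a1b, and its groups did not overlap at 4 and 6 dpf. At 7 dpf it measured 27.0, 31.2, 44.2, 52.3 and 65.6 CPM in vehicle, the last in the shallow library, and 56.1, 67.2, 75.1, 88.04 and 93.0 CPM in calcitriol. The shallow library was the 1 vehicle library that lay above a treated one. The log2 fold change was 0.79 ± 0.23 (1.73-fold, edgeR adjusted p = 0.0228). The call was lost when vehicle replicate 2 or 3 or calcitriol replicate 1 or 2 was left out (adjusted p up to 0.0637), and without both shallow libraries the change was 0.99 ± 0.24 (adjusted p = 0.00746).

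At 6 dpf col10a1 measured 82.3, 87.6, 93.6, 111 and 128 CPM in vehicle and 137, 163, 168, 174 and 185 CPM in calcitriol. The highest vehicle library lay below the lowest treated one (0.73 ± 0.13, 1.66-fold, edgeR adjusted p = 0.00478). A single fit of all 40 libraries gave an adjusted p of 0.0574. At 4 dpf the groups also did not overlap, with 182, 186, 191, 199 and 230 CPM in vehicle and 250, 272, 274, 281 and 365 CPM in calcitriol. In both treatments the mean level was highest at 4 dpf among the 4 ages.

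At 4 dpf 0 of 21 collagens, and 0 of 13410 genes, passed in edgeR, where 924 genes, 2 of them collagens, reached an unadjusted p under 0.05. Of the 100 genes called in DESeq2 and the 29 called in limma voom, 1 each was a collagen. col10a1 had the change 0.55 ± 0.10 (edgeR adjusted p = 0.151), and it was the 1 collagen whose groups did not overlap, against 1.75% of genes. The numbers of the deposited exon count table pair the libraries of this age by correlations in these same data, not by a label. With them as a block 5 collagens were higher and 0 lower, against 9.36% of genes called (5.22% higher). These were col10a1 (0.54 ± 0.08, adjusted p = 0.00419), col18a1 (0.22 ± 0.05, adjusted p = 0.0164), col1a1b (0.15 ± 0.04, adjusted p = 0.0297), col9a1 (0.24 ± 0.06, adjusted p = 0.0314) and col1a1a (0.26 ± 0.07, adjusted p = 0.0437). Within pairs col10a1, col18a1 and col1a1b were higher in 5 of 5, and col1a1a and col9a1 in 4 of 5. Without the shallow libraries and without the block 0 collagens passed in edgeR, against 0.134% of genes, and col10a1 had 0.56 ± 0.12. Of 11 genes for epidermis, 0 were called at this age with all libraries and no block. In the blocked fit 6 were lower, where 4.14% of all genes were lower. Their summed levels were 23977 to 26667 CPM in vehicle and 18417 to 20540 CPM in calcitriol. krt4 weighs most in these sums, with a mean of 14676 CPM over all 40 libraries. The part of the epidermis in the collagen values was not tested.

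**Figure D3:**
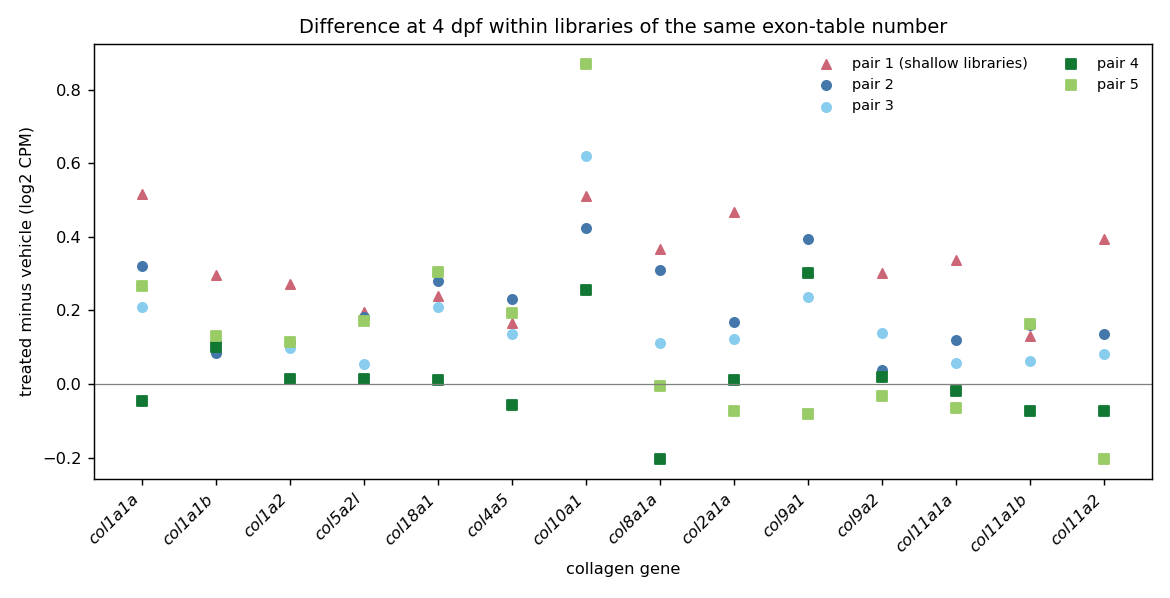
Difference in log2 CPM at 4 dpf, calcitriol minus vehicle (y axis), for 14 collagen genes (x axis) within the 5 pairs of libraries that share a number in the exon table, with 1 point per pair and triangles for the shallow pair. col10a1 lies between 0.26 and 0.87 in all 5 pairs. col1a1b, col1a2, col5a2l and col18a1 also lie above 0 in all 5, and every other gene shown lies below 0 in at least 1 pair.

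col8a1a, a short-chain collagen of vessel and corneal basement membranes, was higher at 7 dpf. It measured 12.9, 13.9, 15.0, 17.4 and 23.6 CPM in vehicle and 25.3, 28.3, 29.4, 30.6 and 31.6 CPM in calcitriol. The groups did not overlap, and the shallow library was the highest of vehicle and the lowest of calcitriol (0.82 ± 0.15, 1.77-fold, edgeR adjusted p = 0.00222). Without the shallow libraries the change was 1.03 ± 0.09. At 6 dpf its change of 0.58 ± 0.21 did not pass (adjusted p = 0.110), with 22.9 to 48.7 CPM in vehicle and 39.8 to 72.4 CPM in calcitriol, the highest in both being the shallow library. Without these it was 0.57 ± 0.10 (adjusted p = 0.00156).

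The 2 type 27 paralogs were higher at 7 dpf. col27a1a measured 12.5, 12.6, 13.8, 14.1 and 15.9 CPM in vehicle and 16.4, 16.5, 17.7, 18.6 and 21.1 CPM in calcitriol, with no overlap (0.40 ± 0.10, edgeR adjusted p = 0.0101). col27a1b, a gene of low level, measured 2.70 to 4.13 CPM and 3.21 to 6.41 CPM, which overlapped (0.53 ± 0.18, edgeR adjusted p = 0.0423). Its call was lost in 8 of 10 fits that each left out 1 library. Without both shallow libraries its change was 0.58 ± 0.12 (edgeR adjusted p = 0.00131). At 6 dpf col27a1b was the second collagen called beside col10a1 (0.36 ± 0.10, edgeR adjusted p = 0.0450), with 3.41 to 5.03 CPM in vehicle and 5.44 to 6.03 CPM in calcitriol, a call lost in 9 of 10 such fits. col27a1a at 6 dpf was 0.26 ± 0.09 (adjusted p = 0.0703). Without the shallow libraries col27a1a and col27a1b both passed at 6 dpf, at 0.31 ± 0.07 and 0.28 ± 0.08 (edgeR adjusted p = 0.0118 and 0.0264). col5a3a, a minor type 5 chain, measured 2.47, 2.53, 2.56, 2.56 and 2.71 CPM in vehicle and 3.09, 3.35, 3.46, 3.53 and 4.39 CPM in calcitriol at 7 dpf (0.48 ± 0.11, edgeR adjusted p = 0.00837). Its call was lost in a single fit of all 40 libraries (adjusted p = 0.0663). Its paralog col5a3b was at 0.74 times the vehicle mean and did not pass (-0.43 ± 0.24, adjusted p = 0.205).

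Of the 6 cartilage chains 3 were lower at 7 dpf. col2a1a, the type 2 chain, measured 890, 902, 1071, 1212 and 1316 CPM in vehicle and 663, 668, 787, 823 and 958 CPM in calcitriol. Both highest values came from the shallow libraries, and 4 of 5 treated libraries lay below all vehicle libraries (-0.46 ± 0.14, edgeR adjusted p = 0.0262). The call was lost with no scaling factors (adjusted p = 0.0999) and without vehicle replicate 4 or 5 or calcitriol replicate 3 or 4 (adjusted p up to 0.0689). Those replicates carry numbers 4 and 5 in the exon table. Within its numbers 1 to 5 the differences in log2 CPM were -0.46, -0.20, -0.11, -0.87 and -0.68. In col11a2 they were -0.55, -0.37, -0.40, -1.12 and -1.06.

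col9a2, a chain of the type 9 collagen on the fibril surface, measured 151, 156, 170, 188 and 270 CPM in vehicle and 91.1, 92.2, 110, 113 and 166 CPM in calcitriol. The highest value in each group was again the shallow library, and the treated 166 CPM was the one overlapping value (-0.70 ± 0.20, 1.62-fold lower, edgeR adjusted p = 0.0202). col11a2, a chain of the type 11 core, measured 95.8, 98.4, 120, 132 and 159 CPM and 57.8, 60.8, 74.3, 74.3 and 109 CPM, with the same pattern (-0.68 ± 0.19, edgeR adjusted p = 0.0186). The other cartilage chains did not pass. col9a1 was lower by mean but widely spread, with 243 CPM in the shallow vehicle library against 99.7 to 124 in the others, and 201 CPM in the shallow treated library against 62.5 to 70.9 (-0.52 ± 0.36, adjusted p = 0.298). col11a1a had -0.38 ± 0.14 (adjusted p = 0.0658), and col11a1b had 0.16 ± 0.10 (adjusted p = 0.275).

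**Figure D4:**
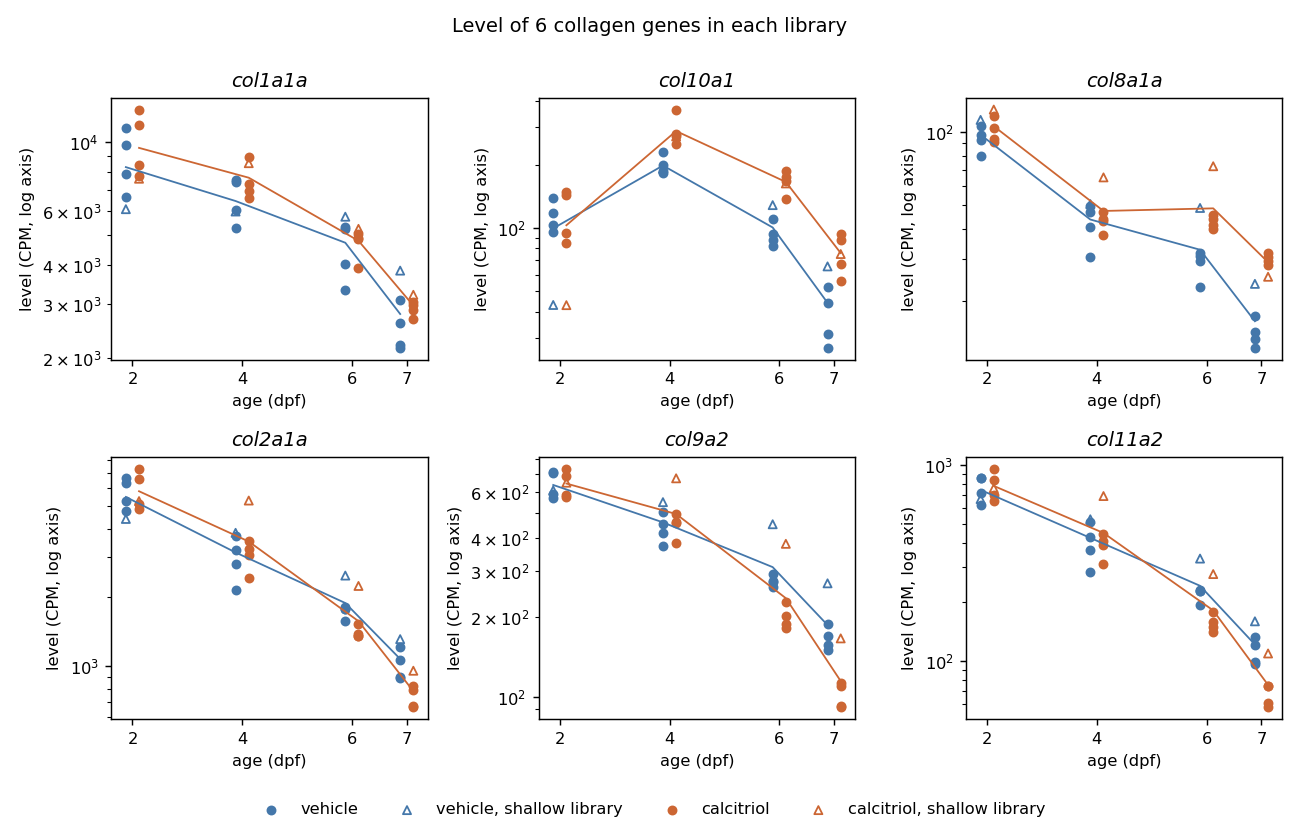
Level in CPM (y axis, log scale, different range in each panel) of col1a1a, col10a1, col8a1a, col2a1a, col9a2 and col11a2 in every library against age (x axis), with vehicle in blue, calcitriol in orange, triangles for the shallow libraries and lines through the means of 5 libraries. At 7 dpf the orange points of col10a1 and col8a1a lie mostly or wholly above the blue ones, and those of col2a1a, col9a2 and col11a2 mostly below, while those of col1a1a lie within the blue range.

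Leaving out the shallow libraries narrowed the spread of the cartilage collagens. At 7 dpf the number of called collagens went from 8 to 13 (6 higher and 7 lower). Of all genes 56.6% then passed, 28.6% higher and 28.1% lower. At 6 dpf the number went from 2 to 11 (4 higher and 7 lower), while 26.1% of genes passed (12.1% higher and 14% lower). At 7 dpf col9a1 (-0.68 ± 0.08, edgeR adjusted p = 1.98e-05) and col11a1a (-0.37 ± 0.09, adjusted p = 0.00492) were then lower with col2a1a, col9a2 and col11a2, as were col5a3b (-0.47 ± 0.10) and col28a1a (-0.41 ± 0.14). col18a1 was then higher (0.53 ± 0.09, adjusted p = 0.000298) with the 5 called before. At 6 dpf the same 5 cartilage chains were lower by 0.30 to 0.48 on the log2 scale (adjusted p from 0.00251 to 0.0457), where none of the 6 cartilage chains passed with all libraries. col11a1b was not lower in either fit. Over all 40 libraries the median fold change of the 6 cartilage chains was 0.07, 0.11, -0.28 and -0.49 at 2, 4, 6 and 7 dpf. With the exon table's numbers as a block, 4 of the 6 were lower at 6 dpf and 5 at 7 dpf, and 0 higher. Of all genes 12.7% and 18% were then lower. Those numbers did not meet the pairing rule at either age.

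The type 1 chains of bone and skin did not pass at 6 or 7 dpf. At 7 dpf col1a1a measured 2165, 2209, 2609, 3083 and 3839 CPM in vehicle and 2687, 2872, 2984, 3050 and 3208 CPM in calcitriol, and the treated range lay within that of vehicle (0.10 ± 0.15, edgeR adjusted p = 0.652). col1a1b had -0.08 ± 0.12 and col1a2 -0.04 ± 0.14 (adjusted p = 0.655 and 0.834). Without the shallow libraries col1a1a had 0.21 ± 0.10, col1a1b -0.08 ± 0.09 and col1a2 -0.03 ± 0.09 (edgeR adjusted p = 0.0907, 0.487 and 0.760). At 6 dpf the 3 fold changes were 0.03, -0.05 and -0.03 (adjusted p from 0.833 to 0.921), with standard errors of 0.10 to 0.14. The sign of these small changes depended on the scaling: with no scaling factors col1a1b and col1a2 were above 0 at both ages. Type 1 as a sum was 5878 ± 1217 CPM in vehicle and 5908 ± 575 CPM in calcitriol at 7 dpf (SD, n = 5), and cartilage collagens as a sum were 2008 ± 393 CPM and 1470 ± 285 CPM.

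With all libraries and no block, the basement membrane and remaining collagens were not called between treatments at any of the 4 ages. col4a5 was between 1.07 and 1.21 times the vehicle mean at all 4 ages, with log2 fold changes of 0.27, 0.14, 0.13 and 0.11. col18a1, whose C-terminal fragment is endostatin, had 0.28 ± 0.15 at 6 dpf and 0.34 ± 0.17 at 7 dpf (adjusted p = 0.287 and 0.149). col15a1a, col17a1a, col28a1a and col5a2l likewise did not pass, with fold changes from -0.50 (col28a1a) to 0.12 (col5a2l) at 7 dpf.

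At 2 dpf 0 of 21 collagens passed in edgeR, against 0.00757% of 13203 genes (1 gene), and 0 of 21 groups were free of overlap, against 0.204%. DESeq2 and limma voom each called 0 collagens. In edgeR 2 collagens had an unadjusted p under 0.05, col4a5 (0.27 ± 0.10) and col17a1a (0.41 ± 0.17). Fold changes were above 0 in 20 of 21, with a median of 0.12 against -0.01 over all genes, and 18 of 21 were above 0 at 4 dpf with the same median. The genes share their libraries, so these signs are not independent, and the share of all genes above 0 was not taken. In limma voom col10a1, col11a2, col2a1a, col9a1 and col9a2 were below 0 at 2 dpf. The collagen sums overlapped between the groups at 2 dpf, with 22349 to 35992 CPM in vehicle and 26923 to 40695 CPM in calcitriol.

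The test of whether the response differed between ages called 0 of 21 collagens, where 7.79% of 13650 genes passed (edgeR, all 40 libraries, no replicate block). With the exon table's numbers as a block, 10 collagens passed, against 26.9% of genes. Each pair of equal number correlated above a limit of 0.1 at 2 and 4 dpf only. At an unadjusted p under 0.05 there were 4, namely col8a1a, col9a2, col11a1a and col11a2, with adjusted p from 0.1198 to 0.237, and DESeq2's likelihood ratio test also called 0. Without the shallow libraries these 4 passed (edgeR adjusted p from 0.000163 to 0.0468), against 22.7% of genes. In the direct contrasts of neighbouring ages without the block, 0 collagens passed for 4 against 2, 6 against 4 or 7 against 6 dpf, where 0, 21 and 34 genes did (0%, 0.154% and 0.249%). With the block 4 passed for 6 against 4 dpf, against 4.15% of genes, namely col9a2, col11a1a, col9a1 and col11a2 (edgeR adjusted p = 0.00691, 0.0223, 0.0277 and 0.0387). At 6 dpf the correlations within equal numbers ranged from 0.081 to 0.497, below that limit at the low end, which limits this contrast. Without the block the largest differences were in col11a2 (-0.50 ± 0.29) and col9a2 (-0.50 ± 0.27) for 6 against 4 dpf and in col10a1 (0.50 ± 0.35) for 4 against 2 dpf. Next came col9a1 (-0.49 ± 0.45) and col8a1a (0.45 ± 0.25), both for 6 against 4 dpf.

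The genes that make and remodel collagen were tested in the same fits. At 7 dpf 5 of 14 folding and modification genes were higher and 0 lower, with a median of 0.27, where 14.6% of all genes were higher and 14.2% lower. They were fkbp9 (0.89 ± 0.18, edgeR adjusted p = 0.00392), fkbp7 (0.76 ± 0.19), plod2, the lysyl hydroxylase of collagen ends (0.57 ± 0.16), plod1a (0.41 ± 0.12) and pdia4 (1.09 ± 0.31). Of 9 secretion genes 4 were higher and 0 lower, against the same shares of all genes, with a median of 0.41, and all 4 encode subunits of the COPI coat (copa 0.68, copb1 0.76, copb2 0.56 and copg2 0.65), which carries cargo from the Golgi back to the endoplasmic reticulum. At 6 dpf the medians of the 2 lists were 0.04 and 0.15. In the blocked fit of 4 dpf 2 genes each of the folding, processing, degradation and receptor lists were higher and none of these lists had a lower call, where 5.22% of all genes were higher and 4.14% lower.

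Of 14 processing and crosslinking genes 4 were higher at 6 dpf and 0 lower (over all genes 4.37% and 6.32%), and at 7 dpf 5 were higher and 2 lower (14.6% and 14.2%). lox, the lysyl oxidase, rose from a mean of 9.90 to 15.96 CPM at 6 dpf (0.71 ± 0.16, edgeR adjusted p = 0.0137) and from 6.75 to 13.4 CPM at 7 dpf (1.00 ± 0.09, adjusted p = 1.96e-05). loxl1 rose by 0.56 ± 0.14 and 0.84 ± 0.15, and loxl2b by 0.39 ± 0.10 and 0.67 ± 0.09. The procollagen C-proteinases bmp1a and bmp1b parted at 7 dpf, at 0.29 ± 0.07 and -0.60 ± 0.09, as loxl3a fell by 0.85 on the log2 scale.

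Of 8 degradation genes, 2 were higher at 6 dpf and 3 at 7 dpf, and 0 lower, where 4.37% and 14.6% of all genes were higher. The membrane-bound collagenase mmp14b measured a mean of 42.5 and 68.1 CPM at 6 dpf (0.69 ± 0.13, adjusted p = 0.00601) and 35.6 and 74.6 CPM at 7 dpf (1.07 ± 0.13, edgeR adjusted p = 0.000150). The metalloproteinase inhibitor timp2b rose from 7.12 to 33.4 CPM at 7 dpf (2.24 ± 0.38, adjusted p = 0.00125), and collagenase mmp13a from 6.03 to 13.2 CPM (1.15 ± 0.37, adjusted p = 0.0378). ctsk, the collagen-degrading cathepsin of osteoclasts, was higher at 6 dpf (0.55 ± 0.13, adjusted p = 0.0190) and did not pass at 7 dpf (0.50 ± 0.18, adjusted p = 0.0570).

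Of 14 receptors and fibril-associated proteoglycans 1 was higher and 1 lower at 6 dpf, and 3 higher and 1 lower at 7 dpf, where 4.37% and 6.32% of all genes were higher and lower at 6 dpf and 14.6% and 14.2% at 7 dpf. aspn was higher at both (0.68 ± 0.12 and 0.63 ± 0.16), and kera, a corneal keratan sulfate proteoglycan, was lower at both (-0.96 ± 0.26 and -1.24 ± 0.40). Of 16 transcription factors 1 was higher at 6 dpf, scxa, the tendon factor (0.46 ± 0.12), and 7 were higher and 1 lower at 7 dpf, against the same shares. runx2a and runx2b, factors of bone and hypertrophic cartilage, were higher by 0.86 ± 0.18 and 0.85 ± 0.29 at means of 0.848 and 1.76 CPM in vehicle, and sox6, which acts with sox9 on cartilage collagens, was lower by 0.49 on the log2 scale (edgeR adjusted p = 0.0118). The lists were chosen with earlier results of these data known, and no test of a list was made.

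Markers of the tissues that make collagen give the setting of these values. The osteoblast list held 2 genes in the table, phex and sp7, and neither passed at 6 or 7 dpf. sp7 was at a mean of 0.662 CPM in vehicle and 0.933 CPM in calcitriol at 7 dpf (0.52 ± 0.27, adjusted p = 0.174). The summed level of the 2 genes was 33.5 to 39.9 CPM in vehicle and 31.7 to 38.3 CPM in calcitriol at that age. Over all 40 libraries phex had a mean of 39.0 CPM and sp7 of 1.66 CPM. Of 10 genes listed for chondrocytes 1 was higher at 7 dpf (matn3a, 0.50 ± 0.09). At that age 3 were lower (matn1 -0.89 ± 0.21, epyc -1.29 ± 0.25 and lect1 -0.61 ± 0.18, edgeR adjusted p from 0.00306 to 0.0246). Of all genes 14.6% were higher and 14.2% lower. The summed levels were 454 to 609 CPM in vehicle and 419 to 557 CPM in calcitriol. The list includes chm (mean 27.0 CPM over all 40 libraries), a symbol of a Rab escort protein and not a cartilage marker, so count and sum are not of chondrocyte markers alone. At 6 dpf 1 of the 10 was higher, matn3a, and 0 lower, where 4.37% of all genes were higher and 6.32% lower. With the exon table's numbers as a block, 1 was higher and 4 lower at 6 dpf. Of all genes 12.9% were then higher and 12.7% lower. Of 4 notochord markers, of which epyc is shared with the chondrocyte list, 2 were higher and 1 lower at 7 dpf, with sums of 100 to 118 and 92.3 to 111 CPM. Their part in the change of the cartilage collagens was not tested.

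Markers of other tissues were tested in the same way. Of 11 epidermis markers 6 were lower at 6 dpf, and at 7 dpf 7 were lower and 1 higher. Of all genes 6.32% were lower at 6 dpf and, at 7 dpf, 14.2% lower and 14.6% higher. krt4 weighs most in the sum of the 11, with a mean of 14676 CPM over all 40 libraries, against 4386 CPM for krt5, the next. The summed levels at 7 dpf were 20554 to 26751 CPM in vehicle and 8776 to 14068 CPM in calcitriol. Epidermal col17a1a was not called at that age (-0.16 ± 0.20, adjusted p = 0.582). Of 8 rows for fibroblasts and tendon 2 were higher at both ages (thbs4b and pdgfra), where 4.37% of all genes were higher at 6 dpf. Their sums were 244 to 329 CPM in vehicle and 354 to 471 CPM in calcitriol at 7 dpf. thbs4b weighs most in these sums, with a mean of 193 CPM over all 40 libraries, against 46.7 CPM for mfap2, the next. Of 8 endothelial markers 7 were higher at 7 dpf. Of muscle, lens and liver markers 4 of 11, 5 of 10 and 7 of 7 were lower at 7 dpf. Over all genes 14.6% were higher and 14.2% lower at that age. No marker was at 0 in any group, and the part of these tissues in the collagen values was not tested.

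Counts per exon gave a second reading of the same libraries, for exons that carry a gene name and have a mean of at least 20 counts. The exon table has 194750 lines, and 25312 distinct exons carry a gene name. Exons without a name were not read, so the numbers below are not the full exon numbers of these genes. At 7 dpf all 8 such exons of col2a1a, all 5 of col11a2, all 7 of col9a1 and all 9 of col11a1a had a lower mean in calcitriol. So did 4 of 5 in col9a2. The median log2 ratio per exon was -0.48 in col2a1a and -0.74 in col11a2. All 4 such exons of col27a1a were higher, with log2 ratios of 0.06 to 0.71. col1a1a had 9 of 12 exons higher and col1a2 0 of 7, with medians of 0.06 and -0.07. col10a1 and col8a1a had no named exon, and the named exons of col5a3a were below the count limit at this age. Exons of a gene share their libraries and are not replicates.

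The exon table also carries the collagen gene structure. Fibrillar collagen genes are known for exons built on a unit of 54 bases, which encodes 6 repeats of glycine and 2 other residues. Of the 177 collagen lines in the table, 4 repeat an exon in reversed order and were merged with it. Of 117 named exons of fibrillar types 1, 2, 5, 11 and 27, 58 (49.6%) were exactly 54 bases long and 90 (76.9%) were 45, 54, 99 or 108 bases. Of the 25127 named exons of other genes 0.354% and 2.10% had such lengths. col4a5 stood apart, with 1 of 15 named exons of 54 bases. No sequence was used for these counts.

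**Figure D5:**
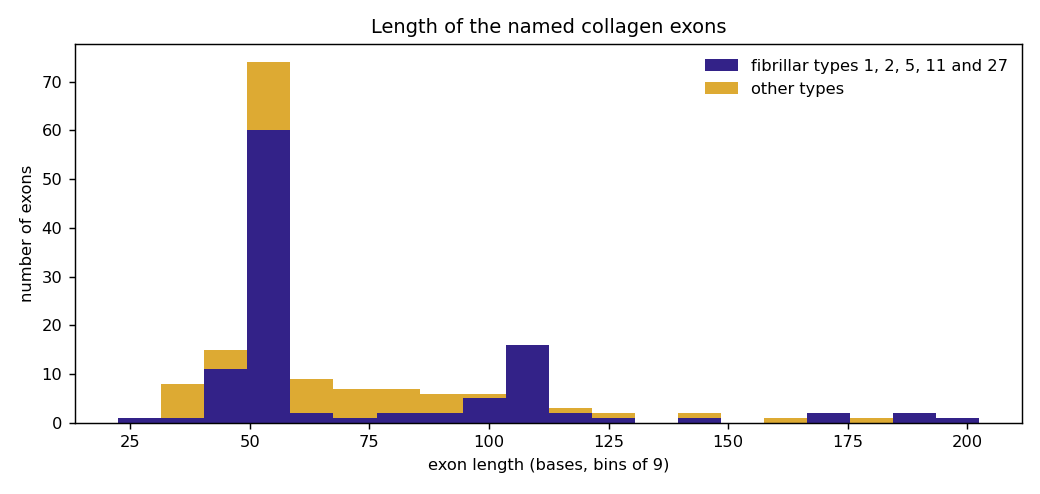
Number of named collagen exons (y axis) by length in bases (x axis, bins of 9), for fibrillar types 1, 2, 5, 11 and 27 (dark) and other types (yellow), with 163 of 173 exons in the plotted range. The tallest bar holds the 54-base exons and a second peak the 108-base exons, both mostly of fibrillar genes.

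Genes with the course most like col10a1 and col1a1a were taken by the Pearson correlation of mean log2 CPM over the 8 groups, which share libraries, so no p-value is given. For col10a1 these were slc27a1a (r = 0.987), the row for col8a2 (0.983), si-dkeyp-51b7.1 (0.973), mmab (0.973) and entpd1 (0.962). For col1a1a they were 2 rows that RefSeq gives as 1 gene, si:dkey-102c8.3 (0.997 and 0.993), col1a2 (0.995), lum (0.994) and col11a1b (0.992). Across the collagens col1a1b and col4a5 also followed col1a1a closely (0.991 and 0.983), and col15a1a and col17a1a least (0.335 and 0.371), with col10a1 at 0.583.

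The 2 rows that only share the letters, col4a3bp and col4a3bpa, both on chromosome 5, belong to the same RefSeq gene, so reads may be split between them and their values are uncertain. At 7 dpf col4a3bp measured 8.26 to 9.88 CPM in vehicle and 6.45 to 7.78 CPM in calcitriol, without overlap (-0.36 ± 0.09, edgeR adjusted p = 0.00915). The call was lost with no scaling factors (adjusted p = 0.108). col4a3bpa had -0.31 ± 0.11 (adjusted p = 0.0507), and the fold changes of both between neighbouring ages of vehicle were at most 0.17 in size on the log2 scale.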

How the data were processed

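The authors deposited counts of reads per gene and per exon for the 40 libraries. Per the submitters' processing notes, CASAVA 1.4 and HTSeq 0.5.3p3 were used, and the aligner and genome build are not given in the sources used here. Per the labels' protocols the kit did not mark strand, so overlapping genes cannot be told apart. The gene counts, 67235165 to 214502251 per library, were tested with edgeR 4.0.16 in R 4.3.3 (filterByExpr, TMM, robust quasi-likelihood fit), 1 fit per comparison, with Benjamini-Hochberg adjustment over all genes tested and a threshold of 0.05. Differences between ages were tested as the interaction in 1 fit of all 40 libraries. The scripts were tested on simulated data. Alternatives were RLE factors, no scaling factors, no filter, DESeq2 1.42.0, limma 3.58.1 (voom with quality weights), 1 fit of all libraries, leaving out the shallow library of each group or each library in turn, and replicate blocks.

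Replicate numbers in the titles did not pair treated with vehicle libraries: correlations of deviations from the group means were -0.302 to 0.317 at 2 dpf, -0.32 to 0.433 at 4 dpf, -0.316 to 0.261 at 6 dpf and -0.428 to 0.088 at 7 dpf. The exon table numbers its columns differently, and its columns were tied to the gene table through genes whose totals, of 50 counts or more, were identical in both. Its numbers met the rule that each pair correlate above 0.1 at 2 dpf (0.256 to 0.642) and 4 dpf (0.329 to 0.656). They did not meet it at 6 dpf (0.081 to 0.497) and 7 dpf (0.046 to 0.388). Its number 1 was the shallow library in every group. Vehicle libraries of equal number met the same rule for 2 and 4 dpf (0.258 to 0.357) and for 6 and 7 dpf (0.196 to 0.533). They did not meet it for 4 and 6 dpf (0.035 to 0.449). No label states a pairing. All pairings were read from the same expression data as the tests. For vehicle only libraries of equal number were compared, so the rule cannot show that these numbers pair better than others.

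Named were the chains of types 1, 2, 9, 10 and 11, up to 10 called collagens each way per calcitriol comparison, and up to 4 genes of each pathway list with the smallest p. At the vehicle steps only some of the called collagens were named, and others with large changes were left out. pdia4, and at 7 dpf bmp1a, loxl3a and runx2b, were named after their values were seen. The members and lists were chosen with earlier results of these data known.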

Additional observations from a re-analysis of the deposited data

Results flagged for a closer look

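In 13 of 184 groups of 5 libraries (23 genes in 8 groups), 1 library lay apart from the other 4, by a gap over the group's range above Dixon's critical value of 0.71; chance flags about 1 in 20 groups. The shallow library was the one apart in 11 of the 13. At 7 dpf in vehicle it was highest for col17a1a (352 CPM, the next at 211), col5a2l (351, next 251) and col9a1 (243, next 124). At 7 dpf in calcitriol it was highest for col5a2l (390, next 270), col5a3b (182, next 103) and col9a1 (201, next 70.9). At 6 dpf it was highest in calcitriol for col2a1a (2250, next 1540), col8a1a (72.4, next 45.4) and col9a1 (470, next 197), and in vehicle it was highest for col9a2 (452, next 292) and lowest for col5a3a (2.34, next 3.53). The other 2 were low values in deeper libraries: col1a1a in calcitriol replicate 1 at 6 dpf (3920, next 4870) and col4a3bp in calcitriol replicate 3 at 4 dpf (5.07, next 6.97).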

How the results depend on the processing

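The count of called collagens at 4 dpf, 0 in edgeR, was 1 in DESeq2 (100 genes called) and 1 in limma voom (29 genes). It was 5 with the replicate block of the exon table's numbers (9.36% of genes). At 6 dpf the count of 2 became 1 with RLE factors, 1 in 1 fit of all libraries and 1 with the replicate block of the title numbers. It became 4 with no scaling factors and 4 in DESeq2 (2208 genes called). It was 11 without the shallow libraries (26.1% of genes) and 11 in limma voom (4304 of 13505 genes). With the exon table's block it was 12 (25.6% of genes called). Leaving out 1 library gave 1 to 7, with 4 without the shallow vehicle library, 7 without the shallow calcitriol library and 1 without any other. At 7 dpf the count of 8 became 13 without the shallow libraries (56.6% of genes called) and 13 in limma voom (8266 of 13434 genes). It became 12 with the exon table's block (38.4% of genes) and 6 with the title block, and leaving out 1 library gave 6 to 12. For the difference between ages the count of 0 became 1 with no scaling factors and 4 without the shallow libraries (22.7% of genes). It became 10 with the exon table's block (26.9% of genes), and leaving out 1 library gave 0 to 2. The vehicle steps gave 14 to 19, 14 to 19 and 14 to 20 under the other settings, and 15 to 19, 12 to 18 and 10 to 18 with 1 library left out. At these steps limma voom called 9457 of 13379, 7423 of 13466 and 4650 of 13464 genes. Counts given without a share over all genes are not to be read as results about collagens. The causes of these differences were not tested.

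All sign changes were in values that passed in neither fit. In limma voom at 2 dpf these were col10a1 (-0.105), col11a2 (-0.0234), col2a1a (-0.0287), col9a1 (-0.0612) and col9a2 (-0.0272), and at 6 dpf col1a1a (-0.0356). Without the shallow libraries they were col9a2 at 2 dpf (-0.0045) and col11a2 at 4 dpf (-0.0246). With no scaling factors they were col1a1b (0.0699) and col1a2 (0.0832) at 6 dpf, col1a1b (0.0866) and col1a2 (0.118) at 7 dpf, and col1a1b in vehicle between 2 and 4 dpf (0.0261). With 1 library left out, the ranges that crossed 0 were, at 2 dpf, -0.145 to 0.244 for col10a1, -0.0176 to 0.125 for col11a2, -0.0143 to 0.164 for col2a1a, -0.0847 to 0.110 for col9a1 and -0.0364 to 0.0644 for col9a2. At 4 dpf they were -0.0455 to 0.179 for col11a1a, -0.122 to 0.197 for col11a2, -0.0329 to 0.272 for col2a1a and -0.0277 to 0.190 for col9a2. At 6 dpf they were -0.0696 to 0.124 for col1a1a, -0.114 to 0.000771 for col1a1b, -0.113 to 0.0490 for col1a2 and -0.687 to 0.0218 for col9a1, and at 7 dpf -0.139 to 0.0592 for col1a2.

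Shares of a poly-A library are relative, so a change in abundant transcripts of other tissues moves them. With the exon table's numbers, 3, 4, 3 and 3 of 5 libraries at 2, 4, 6 and 7 dpf correlated best with their own number, and with the title numbers 0 did.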
